A study of Mus musculus with 2 samples.

Results

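The transcriptomes of the heme library were compared between the culture labelled day 4, harvested on the first day after addition of heme, and the culture labelled day 3, which precedes it. Members were the cell barcodes that the deposited calls assign to 1 of these hashtags, with 500 or more detected genes and under 15% mitochondrial UMIs (unique molecular identifiers, 1 per captured transcript). These limits kept 6350 cells, 3351 of day 3 and 2999 of day 4, of 25221 cells kept under the same limits in the whole series. The cultures were lineage-depleted (Lin-) bone marrow progenitors of C57BL/6 mice aged 8 to 10 weeks, grown with 20 ng/ml GM-CSF, and 300 µM heme-albumin was added on day 3. In the control library, albumin alone was added on day 3 to cultures of the same strain and with the same GM-CSF. Its cells of days 3 and 4 numbered 4352 and gave the change over the same day without heme. Each day of each library was 1 hashtagged culture, and days 0, 3, 4, 5 and 7 were pooled before the droplets were made. No culture had a replicate, so that no test was possible and the differences have no replicate check. Day 4 differs from day 3 of the heme library both by heme and by 1 more day in culture, and the labels do not say how many mice contributed.

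Heme is the iron-containing pigment of hemoglobin and is toxic when free. Phagocytes import it, cleave it with heme oxygenase into iron, carbon monoxide and biliverdin, and either store the iron in ferritin or export it through ferroportin. Free heme also releases BACH1 from DNA and stabilizes the transcription factor NRF2, and both factors act at antioxidant response elements near genes for heme breakdown, glutathione and NADPH. GM-CSF drives bone marrow progenitors towards granulocytes, monocytes, macrophages and dendritic cells.

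The day 3 cells carried a median of 20197 UMIs and 4452 genes, and the day 4 cells 11433 UMIs and 2954 genes. In the control library the medians were 15770 and 12016 UMIs. Summed over cells, the cultures of the heme library held 75095238 and 46587383 UMIs. Levels are given as CPM, a gene's UMIs scaled to the same total in each culture, and ratios are day 4 to day 3 with exact 95% intervals that cover counting error only. Ribosomal protein genes took 18.6% of the UMIs on day 3 and 12.6% on day 4 (control, 20.9% and 16.6%), and all 81 measured were lower on day 4. Cells of the heme library on day 0 held 124 CPM of Hmox1 against 1.84 CPM in the control library, although neither culture had met heme, and Marco stood at 7.71 against 0.0525 CPM. How much free RNA of the pool contributes to such values was not tested. The day 0 levels of the heme library are therefore given beside some low levels, and they hold the cells' own expression as well as any free RNA. Low levels printed without a day 0 value may hold free RNA as well.

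Of 7839 genes with a mean of 10 CPM or more over both days, 255 were 2-fold or more higher on day 4 (3.25%) and 91 were 2-fold or more lower (1.16%). Over the same day without heme, 150 of 7225 genes were 2-fold or more higher (2.08%) and 24 lower (0.332%). Among 7155 genes that passed in both libraries, 190 were 2-fold higher in the heme library and 146 in the control library. The 102 genes shared by these lists were 53.7% of the former and 69.9% of the latter. Of the 88 genes 2-fold lower in the heme library, 13 were also 2-fold lower in the control library, which was 14.8% of the former and 59.1% of the 22 control genes. The ratio of the heme library's ratio to that of the control library, called the ratio of ratios below, was 2 or more for 53 genes (0.741%) and 0.5 or less for 39 genes (0.545%). The median log2 ratio of all tested genes was -0.13 with heme and -0.11 without. The balance of higher to lower genes moved with the scaling, from 255 against 91 to 322 against 42 with TMM factors and to 233 against 176 when ribosomal protein and mitochondrial genes were left out of the total.

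**Figure D1:**
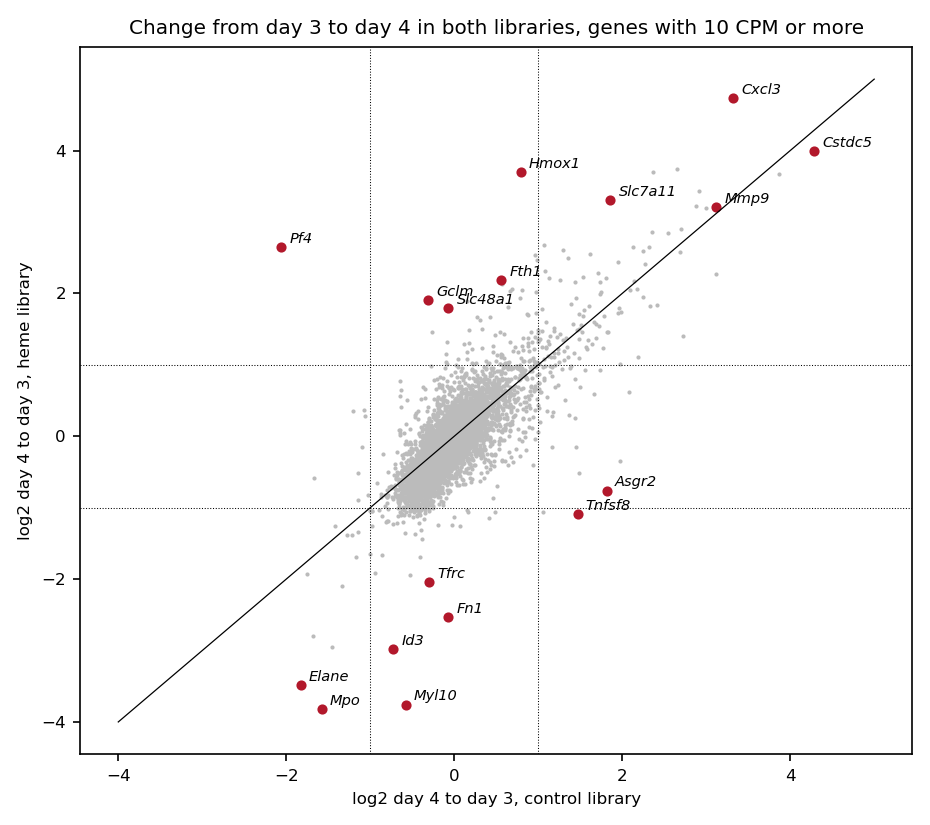
Log2 ratio of day 4 to day 3 for each tested gene in the heme library (vertical axis) against the same ratio in the control library (horizontal axis), with named genes marked. Hmox1, Gclm and Slc48a1 lie well above the diagonal, Tfrc, Myl10 and Fn1 lie below it, and Cstdc5 lies near it.

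Of the genes that take up and break down heme, 3 were 2-fold or more higher on day 4. Hmox1 (chr8:75093621-75100589, plus strand, GRCm38), the inducible heme oxygenase, stood at 150.1 CPM on day 3 and 1945 CPM on day 4 (ratio 12.96, 12.7 to 13.2). Its control levels were 36.0 and 62.3 CPM, which gave a ratio of ratios of 7.49 (6.96 to 8.06). The day 3 level was close to the 124 CPM of day 0, and Hmox1 went on to 3497 CPM on day 5 and 5166 CPM on day 7. Slc48a1 (chr15:97778520-97792692), the transporter that carries heme out of the phagolysosome, was at 68.8 CPM on day 3 and 239 CPM on day 4 (ratio 3.48, 3.36 to 3.59). Without heme it was at 54.0 and 51.5 CPM. Blvrb, a biliverdin reductase, was at 73.9 and 301 CPM (ratio 4.07, 3.94 to 4.20). Blvrb was also higher on day 4 of the control library, by 1.97-fold. These 3 were the 2-fold higher members among 7 measured heme genes, against 3.25% of all tested genes, and none was 2-fold lower. The list's median log2 ratio was 0.50, against 0.08 in the control library. Hmox2, the constitutive oxygenase, had a ratio of 1.03, the heme exporter Flvcr1 of 1.41, and Blvra, the other biliverdin reductase, of 0.960.

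**Figure D2:**
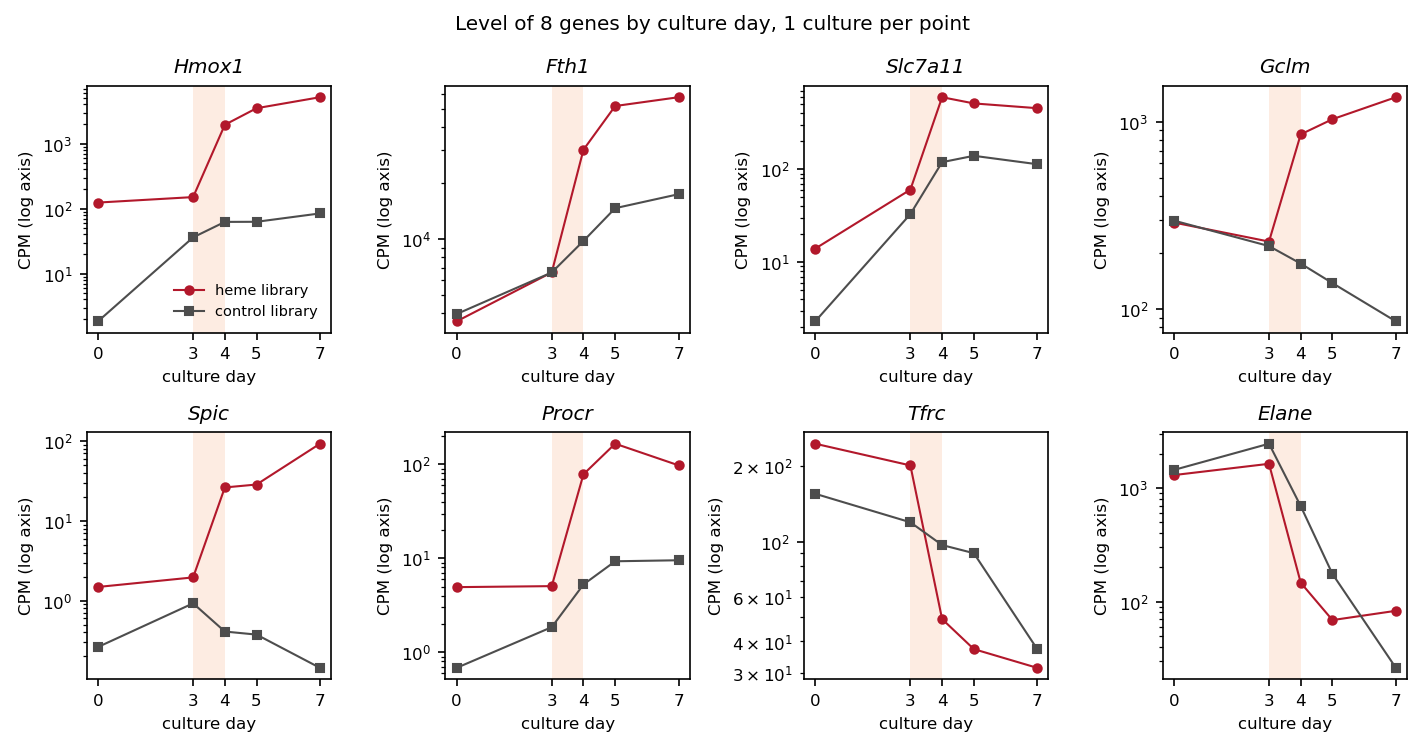
CPM on a log axis for 8 genes in the heme and control libraries by culture day, with 1 culture per point and the step from day 3 to day 4 shaded. In the heme library Hmox1 stood at 150.1 CPM on day 3 and 1945 CPM on day 4, while Tfrc stood at 202 and 49.1 CPM.

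Of 10 measured iron genes, 4 were 2-fold higher (3.25% of all tested genes) and Tfrc alone was 2-fold lower (1.16%). Fth1 (chr19:9980598-9985098), the ferritin heavy chain, was at 6629 CPM on day 3 and 30228 CPM on day 4 (ratio 4.56, 4.55 to 4.57), against 1.48 in the control library. Ftl1, the light chain, was at 4733 and 13235 CPM (ratio 2.80), against 1.13 without heme, although reads of its many pseudogene copies make its count less certain. Together these chains took 1.14% of all UMIs on day 3 and 4.35% on day 4. Slc40a1 (chr1:45908068-45926523, minus strand), which encodes the iron exporter ferroportin, was at 49.96 and 158 CPM (ratio 3.17, 3.05 to 3.30), with a day 0 level of 57.6 CPM (33.3 CPM on day 0 of the control library). Slc11a1, the phagolysosomal metal transporter, was at 3.46 and 41.9 CPM (ratio 12.1, 10.6 to 13.8), and its control ratio was 6.81. The transferrin receptor Tfrc (chr16:32608920-32632794), which imports iron, was at 202 CPM on day 3 and 49.1 CPM on day 4 (ratio 0.244, 0.233 to 0.255). Its control levels were 119.6 and 97.0 CPM. The 4 higher members were Fth1, Ftl1, Slc40a1 and Slc11a1. The list's median log2 ratio was 0.18, against 0.13 without heme, and became -0.039 when each cell was given equal weight.

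The oxidant response list holds targets of NRF2 in glutathione, thioredoxin, quinone and NADPH metabolism. Of its 23 measured members, 10 were 2-fold or more higher and none was lower by that fold, against 3.25% of all tested genes higher. The median log2 ratio over the 27 members with 20 or more UMIs was 0.98, and 0.11 in the control library, where 1 of 20 members was 2-fold higher. Gclm (chr3:122245557-122270732), the modifier subunit of the enzyme that starts glutathione synthesis, was at 229 CPM on day 3 and 858 CPM on day 4 (ratio 3.74, 3.67 to 3.81). Without heme it was at 217 and 175 CPM, so that its ratio of ratios was 4.64 (4.46 to 4.82). Slc7a11 (chr3:49892526-50443614, minus strand), the cystine importer that feeds glutathione synthesis, was at 60.4 and 597 CPM (ratio 9.88, 9.58 to 10.2). Slc7a11 was also higher without heme, by 3.62-fold. Gclc, the catalytic partner of Gclm, had a ratio of 1.61.

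Among enzymes that remove peroxides, Prdx1, a peroxiredoxin, was at 649 and 2716 CPM (ratio 4.18), and at 618 and 993 CPM without heme. Srxn1, which repairs oxidized peroxiredoxins, was at 23.1 and 94.3 CPM (ratio 4.08, 3.86 to 4.31). Cat, the peroxisomal catalase, was at 72.1 and 177 CPM (ratio 2.45). The thioredoxin reductase Txnrd1 and the glutathione reductase Gsr were below the 2-fold limit, at ratios of 1.75 and 1.44. Among quinone and carbonyl reductases, Nqo1 was at 16.3 and 71.2 CPM (ratio 4.37, 4.10 to 4.67) and Cbr3 at 3.26 and 14.9 CPM, below the limit of 10 CPM. Me1, the cytosolic malic enzyme that makes NADPH, was at 2.98 and 20.7 CPM (ratio 6.94, 6.00 to 8.07). Its control levels were 1.29 and 1.86 CPM. Sqstm1, the autophagy adaptor p62 that binds KEAP1, had a ratio of 3.52. Other NADPH and thiol genes differed little, with ratios of 1.04 for Txn1 and Tkt and of 0.915 for Idh1. The level of the NRF2 gene itself, Nfe2l2, was at 148 and 178 CPM (ratio 1.20), and its control ratio was 1.45. Keap1, which targets NRF2 for degradation, had a ratio of 0.972. Of 7 measured partners of NRF2, only Atf3, a stress-induced bZIP factor, was 2-fold higher, at 23.1 and 107 CPM (ratio 4.62, against 2.19 without heme).

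Promoters were searched for the core of the antioxidant response element, TGACNNNGC on either strand, in the 300 bases from 250 before to 50 after each gene's start in RefSeq (GRCm38.p6). The core was present in 3781 of 27025 promoters (14.0%) and in 17.2% of the promoters of tested genes. Of the 2-fold higher genes with a promoter entry, 41 of 207 held it (19.8%), and of the 2-fold lower genes 9 of 71 (12.7%). Of the 2-fold higher genes with a ratio of ratios of 2 or more, 5 of 32 held it (15.6%), a share below that of tested genes. It was present in 9 of 24 promoters of the oxidant response list (37.5%), in 3 of 8 of the heme list and in 1 of 9 of the iron list (11.1%). The 5 windows of 60 bases shown belong to genes whose day 4 levels were 2-fold or more higher with heme and below that fold, or less raised, without heme. They are a selection, as Angptl2, Edn1 and Mt2 also met this description and held a match that is not shown. They are written 5′ to 3′ on the strand of the gene, with the match in capitals.
Gclm: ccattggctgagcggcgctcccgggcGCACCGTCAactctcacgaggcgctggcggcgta
Prdx1: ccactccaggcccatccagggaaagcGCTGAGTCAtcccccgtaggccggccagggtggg
Procr: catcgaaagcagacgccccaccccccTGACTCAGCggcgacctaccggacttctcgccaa
Pir: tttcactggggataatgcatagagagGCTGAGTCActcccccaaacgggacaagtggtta
Me1: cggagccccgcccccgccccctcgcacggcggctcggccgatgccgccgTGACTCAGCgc
The windows lie at chr3:122245397-122245456, chr4:116685440-116685499, chr2:155751037-155751096 and chrX:164269191-164269250 on the plus strand, and for Me1 at chr9:86695910-86695969 on the minus strand. The matches begin 134, 133, 154, 214 and 6 bases before the start of Gclm, Prdx1, Procr, Pir and Me1. In Procr and Me1 the 9 bases were the same, and in Prdx1 and Pir they were their reverse complement. This likeness holds for the windows selected. Of the matches not shown, that of Mt2 was TGACTCAGC, but those of Angptl2 (GCAACGTCA) and Edn1 (TGACTTTGC) were different. A match describes the letters of the window and is neither a site of binding nor a cause. Promoters of Hmox1 and Slc48a1 were not analysed here.

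Spic (chr10:88674772-88685015, minus strand) encodes the transcription factor of splenic red pulp macrophages. It was at 1.96 CPM on day 3, close to the 1.48 CPM of day 0, and at 26.2 CPM on day 4 (ratio 13.4, 11.3 to 16.0). In the control library it was at 0.926 and 0.410 CPM, from 33 and 13 UMIs, and the ratio of ratios was 30.2 (15.6 to 58.8). Its level on day 7 was 92.7 CPM. Bach1, the repressor that heme removes from DNA, was at 60.8 and 84.8 CPM (ratio 1.39, against 0.942 without heme). Of the 3 measured genes of the heme-sensing list, Spic was the only one 2-fold higher.

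Metallothioneins bind zinc and copper and scavenge radicals. Mt3 (chr8:94152607-94154146) was at 11.5 and 256 CPM (ratio 22.2, 20.7 to 23.8), with a day 0 level of 9.19 CPM and a control ratio of 5.95. Mt2 was at 20.8 and 79.1 CPM (ratio 3.81), and Mt1, the most abundant member, at 547 and 883 CPM (ratio 1.61). The control ratios of Mt2 and Mt1 were 1.72 and 1.03. The list, which also holds the zinc sensor Mtf1 and the zinc exporter Slc30a1, thus had 2 of 5 members 2-fold higher (3.25% of all tested genes) and a median log2 ratio of 0.78, against 0.25 without heme.

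Lipid and proliferation genes differed by less. Of 18 cholesterol synthesis genes, 16 were higher on day 4, and Cyp51, the lanosterol demethylase, was the only one at 2-fold, at 67.9 and 137 CPM (ratio 2.02, 1.95 to 2.10). Cyp51 came under 2-fold with the study's limits on cells, without ribosomal protein and mitochondrial genes in the total, and with equal weight for each cell. Hmgcs1, the enzyme that makes HMG-CoA, had a ratio of 1.94. The ratios without heme were 0.939 for Cyp51 and 0.924 for Hmgcs1, and the list's median log2 ratio was 0.50 with heme and -0.20 without. All 24 cell cycle genes were lower on day 4, with a median of -0.70 against -0.39 without heme. Of all 7839 tested genes, 4968 were lower by any amount and 2871 higher. Within classes the cell cycle median was -0.57 in neutrophil-like and -1.74 in dendritic cell-like cells, but 0.07 in monocyte-like cells, where 14 of 24 were higher, -0.10 in macrophage-like and -0.03 in progenitor-like cells. In neutrophil-like cluster 4 it was 0.69, with 22 of 24 higher. Over the whole culture, the only cell cycle gene to reach 2-fold was Tyms, the thymidylate synthase, at 73.5 and 36.0 CPM (ratio 0.490), and it came under that fold with TMM and DESeq2 factors. Of 9 heat shock chaperone genes, 8 were lower and none by 2-fold, with a median of -0.35 against -0.27. Hspd1, a mitochondrial chaperonin, had a ratio of 0.516. Glycolysis genes had medians of -0.05 and 0.00. Integrated stress response genes had a median of -0.07, with Slc7a11 2-fold higher and Shmt2, a mitochondrial enzyme of serine metabolism, 2-fold lower (ratio 0.428).

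**Figure D3:**
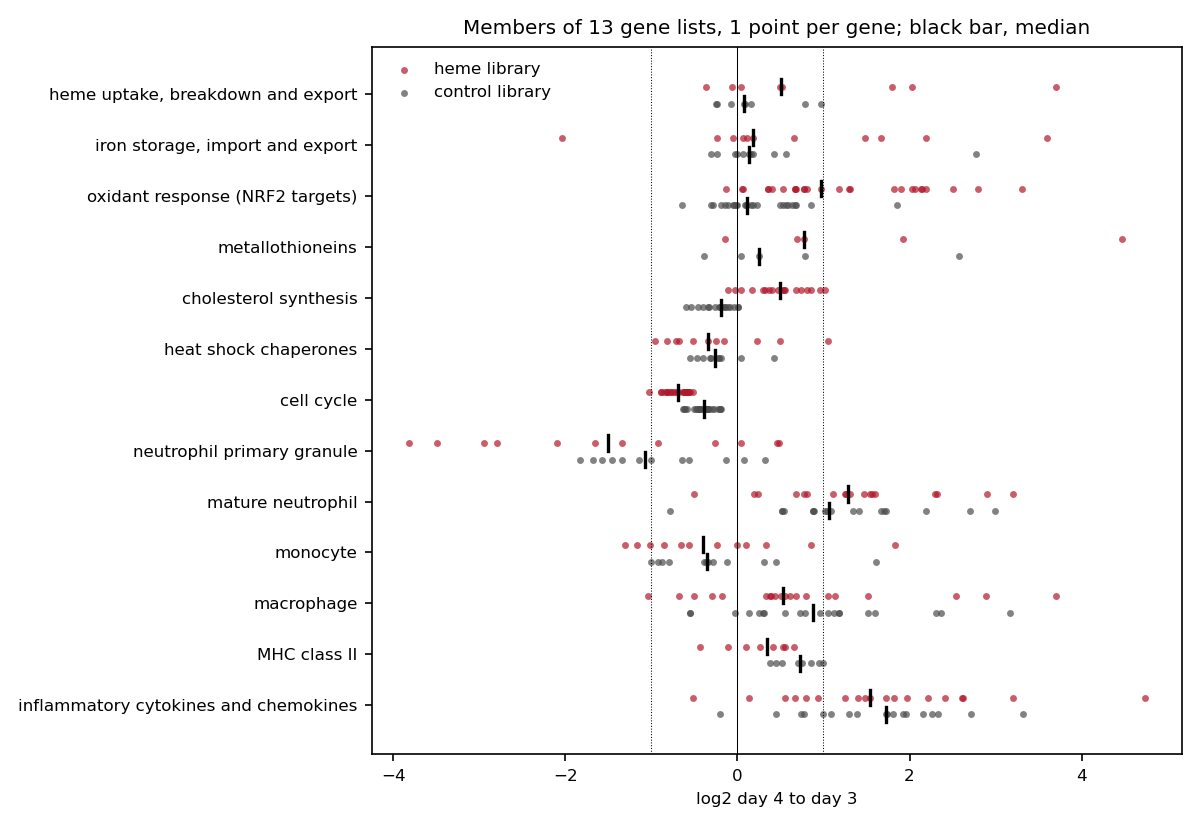
Log2 ratio of day 4 to day 3 for members of 13 gene lists with 20 or more UMIs, 1 point per gene, in the heme and the control library, with the median as a black bar and dotted lines at 2-fold. The medians of the oxidant response list (0.98 and 0.11) and of cholesterol synthesis (0.50 and -0.20) lie far apart, and those of mature neutrophil genes (1.29 and 1.06) lie close.

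Granulocyte genes differed between the days in both libraries. Of 11 primary granule genes, which are made in progenitors, 7 were 2-fold lower in each library, against 1.16% of all tested genes with heme and 0.332% without, with a median log2 ratio of -1.50 with heme and -1.07 without. The smallest ratio was that of Mpo (chr11:87793581-87804413), the myeloperoxidase, at 507 CPM on day 3 and 36.0 CPM on day 4 (ratio 0.0710, 0.0676 to 0.0746), against 382 and 128 CPM without heme. Elane (chr10:79886247-79888215), the neutrophil elastase, was at 1639 and 146 CPM (ratio 0.0893), against 2465 and 694 CPM. The serine proteases Prtn3 and Ctsg had ratios of 0.144 and 0.130, and without heme of 0.312 and 0.364. Mature neutrophil genes were 2-fold higher in 12 of 18 cases with heme and in 11 of 18 without, against 3.25% and 2.08% of all tested genes. The formyl peptide receptor Fpr1 and the chemokine receptor Cxcr2 had ratios of 7.47 and 4.90, against 6.50 and 3.27. All 16 secondary and tertiary granule genes were higher with heme, with a median log2 ratio of 0.70, against 0.57 without heme. By 2-fold, 2 of the 16 were higher with heme and 4 without. The 2 with heme were Mmp9, a gelatinase, at 19.3 and 179 CPM (ratio 9.27, close to its control ratio of 8.67), and Mmp8, a collagenase (ratio 4.69, against 2.89 without heme). The calprotectin genes S100a8 and S100a9 had ratios of 1.75 and 1.72 and took 5.84% of all UMIs on day 3 and 10.1% on day 4.

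Monocyte genes were mixed. Ccr2, the receptor that brings monocytes out of the bone marrow, was at 262 and 106 CPM (ratio 0.405, 0.392 to 0.417), against 0.763 without heme. Cd14, the lipopolysaccharide co-receptor, was at 12.3 and 43.6 CPM (ratio 3.55), against 3.04. Of 11 macrophage genes, 4 were 2-fold higher (Cd36, Gpnmb, Msr1 and Lpl, against 3.25% of all tested genes) and none lower by that fold. Without heme 3 of 12 were 2-fold higher, against 2.08% of all tested genes. Gpnmb, a lysosomal glycoprotein of lipid-laden macrophages, was at 73.5 and 426 CPM (ratio 5.79, 5.62 to 5.97), against 1.95 without heme. Cd36, a scavenger receptor for oxidized lipoproteins, was at 17.7 and 230.0 CPM (ratio 12.998, against 5.15). Msr1, another scavenger receptor, had a ratio of 2.87, against 2.27, and both Msr1 and Lpl, the lipoprotein lipase, came under 2-fold with the study's limits and when each cell was given equal weight. The macrophage list's median was 0.53 with heme and 0.88 without. Mrc1, the mannose receptor, was lower in both libraries, at ratios of 0.708 and 0.684. Among lysosomal genes, Atp6v0d2, a proton pump subunit, was the only one of 11 that was 2-fold higher (ratio 7.37, against 3.56).

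Dendritic cell and antigen presentation genes had lower ratios with heme than without, by their medians. Of 9 dendritic cell genes, 5 were 2-fold higher with heme and 7 without, against 3.25% and 2.08% of all tested genes. Ccl17, a chemokine that attracts T cells, was at 584 and 902 CPM with heme (ratio 1.54, 1.52 to 1.56) and at 526 and 2219 CPM without (ratio 4.22), and its ratio of ratios was 0.366. Ccr7, which guides dendritic cells to lymph nodes, was at 5.78 and 34.9 CPM (ratio 6.04, against 4.75), and Fscn1, an actin-bundling protein of mature dendritic cells, had ratios of 7.17 and 5.82. The median log2 ratio of 8 MHC class II genes was 0.34 with heme and 0.73 without. Cd74, the invariant chain, had ratios of 1.44 and 1.99. H2-DMa, which loads peptides, was at 179.7 and 133 CPM with heme and at 198 and 257 CPM without. The MHC class II median was -0.18 when each cell was given equal weight.

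Inflammatory genes were higher in both libraries, 11 of 14 by 2-fold with heme and 10 of 13 without, against the same 3.25% and 2.08%. Cxcl3, a neutrophil chemoattractant with the largest ratio of all tested genes, was at 9.60 and 256 CPM (ratio 26.7, 24.7 to 28.8), close on day 3 to its day 0 level of 7.87 CPM, and its control ratio was 9.96. Cxcl2, a related chemokine, had ratios of 5.32 and 4.81. Interferon-stimulated genes had a median log2 ratio of 0.71 with heme (24 genes) and 1.68 without (23 genes), and most were below 10 CPM. Of those that passed 10 CPM, 2 of 8 were 2-fold higher with heme and 4 of 7 without, against the same 3.25% and 2.08%. Isg15, a ubiquitin-like protein induced by interferon, had ratios of 4.11 and 6.33. Rsad2, an antiviral enzyme, was at 0.985 and 18.5 CPM (ratio 18.8, 14.8 to 24.1), against 11.0 without heme. Its mean with heme was 9.74 CPM, below the limit of 10 CPM.

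The genes with the largest ratios outside these lists are named by rank. Cstdc5, a stefin-related protease inhibitor, was at 16.0 and 253 CPM (ratio 15.9) and had a larger ratio of 19.5 without heme, and Stfa2 had ratios of 12.7 and 14.5. The stefin genes are near copies, and reads may be divided among them. Procr (chr2:155751117-155755471), the endothelial protein C receptor, was at 5.06 and 78.5 CPM (ratio 15.5, 14.0 to 17.3), with a day 0 level of 4.94 CPM and a ratio of ratios of 5.45. Acod1, which makes itaconate in activated macrophages, was at 4.86 and 65.0 CPM (ratio 13.4, against 6.30). Angptl2, a secreted angiopoietin-like protein, was at 6.75 and 51.6 CPM, with a ratio of ratios of 5.18. Pir, the iron-binding pirin, was at 5.79 and 24.2 CPM (ratio 4.18), against 0.823 without heme. Edn1, endothelin, was at 4.05 and 34.2 CPM (ratio 8.44, against 2.30).

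Other genes had lower ratios of day 4 to day 3 with heme than without. Myl10, a myosin light chain, was at 56.6 and 4.19 CPM (ratio 0.0739, 0.0637 to 0.0854), against 92.1 and 61.7 CPM. Klk1b11, a kallikrein, was at 14.8 and 1.67 CPM, against 22.6 and 23.0 CPM. Fn1, fibronectin, was at 45.8 and 7.94 CPM (ratio 0.173, 0.155 to 0.193), against 45.9 and 43.6 CPM. Id3, an inhibitor of bHLH factors, was at 37.8 and 4.81 CPM (ratio 0.127), against 53.1 and 32.0 CPM. Igfbp4 and Ly86 had ratios of 0.234 and 0.261, and without heme of 0.396 and 0.695. The lectins Mgl2 and Asgr2 were lower with heme, at ratios of 0.702 and 0.590, and 2-fold higher without, at 2.80 and 3.52. Egr3, an early growth response factor, had ratios of 0.789 and 3.92. Some of these genes lead clusters, described below, that held few day 4 cells. Myl10 was among the leading genes of progenitor-like clusters 12 (181 cells on day 3 and 2 on day 4) and 13 (288 and 10). Id3 was among those of dendritic cell-like cluster 9 (324 and 26) and Fn1 among those of monocyte-like cluster 19 (376 and 17). The part of cell shares in these levels was not tested.

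Clustering of the heme library's day 3 and day 4 cells gave 22 clusters, which were named from marker genes with the ending "-like". The control library was not clustered, so that the shares have no counterpart without heme. Heme, iron, heme-sensing, oxidant response, NRF2 partner and metallothionein genes did not enter the clustering. Neutrophil-like cells were 1011 of 3351 on day 3 (30.2%, exact interval 28.6 to 31.8) and 2084 of 2999 on day 4 (69.5%, 67.8 to 71.1). Granulocyte-monocyte progenitor-like cells were 730 on day 3 (21.8%, 20.4 to 23.2) and 43 on day 4 (1.43%, 1.04 to 1.93). Monocyte-like and macrophage-like cells together were 35.4% on day 3 and 24.0% on day 4. Monocyte-like cells took 32.6% and 8.84%, and macrophage-like cells 2.75% and 15.2%, but the line between these varied with the settings, and with the study's limits macrophage-like cells took 5.34% and 5.60%. Dendritic cell-like cells were 344 on day 3 (10.3%) and 92 on day 4 (3.07%). The summed markers of dendritic cells (14 genes) went the other way, at 1674 CPM on day 3 and 2564 CPM on day 4. With the study's upper limits of 5000 genes and 30% ribosomal protein UMIs, which left 2172 and 2481 cells, 303 cells of day 3 (14.0%) and 798 of day 4 (32.2%) stayed unnamed, against 1.64% and 1.53% above. The neutrophil-like shares were then 31.6% and 49.9% and the dendritic cell-like shares 7.46% and 6.53%. Over 5000 genes were detected in 35.1% of the day 3 cells and in 17.2% of the day 4 cells.

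**Figure D4:**
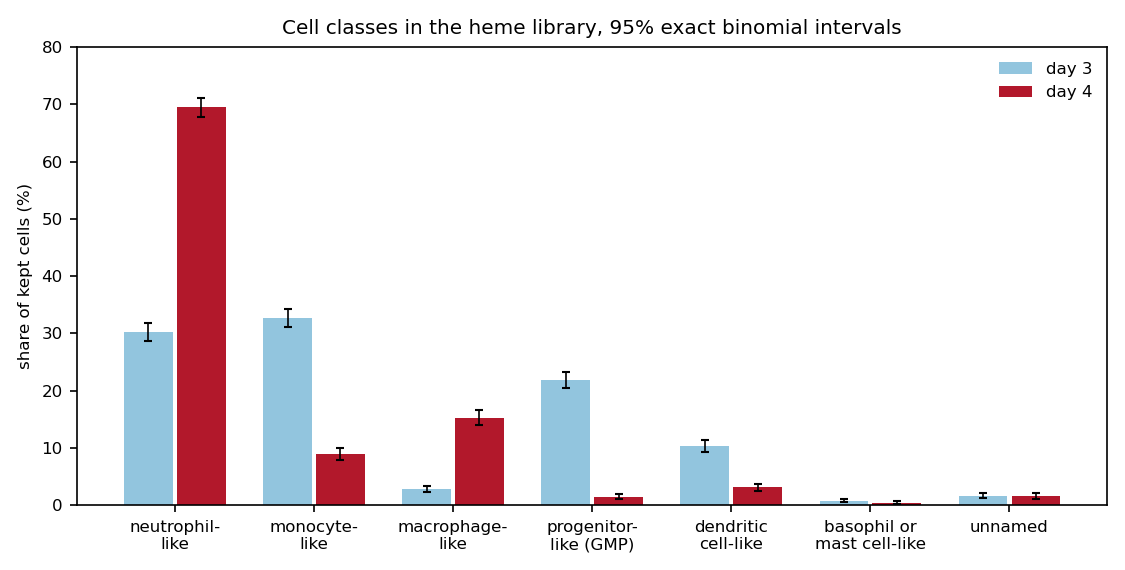
Share of cells (%) of each named class on day 3 and day 4 of the heme library, with exact 95% intervals. Neutrophil-like cells stood at 30.2% and 69.5%, and granulocyte-monocyte progenitor-like cells at 21.8% and 1.43%.

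The shares and the marker levels above come from the same cells and are not separate measurements, and in a culture-wide level fewer cells of a type and less RNA per cell cannot be told apart. The summed markers of granulocyte-monocyte progenitors (12 genes) were at 4820 CPM on day 3 and 758 CPM on day 4, and those of neutrophils (16 genes) at 75077 and 129219 CPM. Without heme, the progenitor markers were at 6763 and 2210 CPM and the neutrophil markers at 99964 and 144099 CPM. The dendritic cell markers were at 1583 and 4245 CPM without heme. With heme, markers of T or NK cells stayed at 1.11 and 1.18 CPM, those of B cells at 51.0 and 22.8 CPM, and erythroid markers at 244 and 270 CPM. Different clusters held the classes on each day, as clusters 14, 4 and 20 held most neutrophil-like cells on day 3 and clusters 5, 11, 4, 7 and 8 on day 4. In dendritic cell-like cells, cluster 9, led by H2-Ab1, Cd209a and Id3, held 324 of the day 3 cells, and cluster 15, led by Ccl22, Fscn1 and Ccr7, held 66 of the day 4 cells. Monocyte-like cells were mostly in clusters 19, 3 and 16 on day 3 and in cluster 16 on day 4. Progenitor-like cells were spread on day 3 over clusters 13, 1 and 12, with 288, 261 and 181 cells, whereas 31 of the 43 day 4 cells were in cluster 1, led by Mpo, Ctsg and Pf4. The day 4 progenitor-like cells held a mean of 109 UMIs of Pf4 per cell, against 1.78 on day 3. Few cells can carry such a mean. Over all day 4 cells 1 cell held 2683 of the 9294 UMIs of Pf4, and the class of that cell was not determined. Macrophage-like cells were in clusters 10 and 21 on both days. Cluster 10 showed 8 macrophage and 7 dendritic cell markers, and Spic was itself a macrophage marker.

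Within classes, Hmox1 was higher on day 4 in every large class, by different folds. In macrophage-like cells Hmox1 was at 345 and 4174 CPM (ratio 12.1, 11.2 to 13.1), and in monocyte-like cells at 176 and 2660 CPM (ratio 15.1, 14.7 to 15.6). In neutrophil-like cells it was at 134 and 680 CPM (ratio 5.06), in dendritic cell-like cells at 132 and 689 CPM (ratio 5.21), and in progenitor-like cells at 114 and 329 CPM (ratio 2.89). These 3 day 3 levels were near the day 0 level of 124 CPM. Progenitor-like cells also differed between the days in their own markers. Of 11 primary granule genes in this class, 5 were 2-fold lower on day 4 and 2 were higher by any amount. With cells thinned to equal depth, as described below, Mpo was seen in 78.4% of them on day 3 and 18.9% on day 4. Elane was seen in 97.8% and 81.1%. The part of this difference in the ratios of this class, here and below, was not tested. The macrophage-like cells, 15.2% of the day 4 cells, held 57.6% of the day 4 Hmox1 UMIs. Per cell, they held 7.41 UMIs of Hmox1 on day 3 and 115 on day 4, and neutrophil-like cells held 1.94 and 7.37. The day 4 macrophage-like cells were deeper, with a median of 24038.5 UMIs of all genes against 8523.5 in neutrophil-like cells. Shares of a gene's UMIs by class and UMIs per cell, here and below, therefore hold this difference in depth, which CPM does not.

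**Figure D5:**
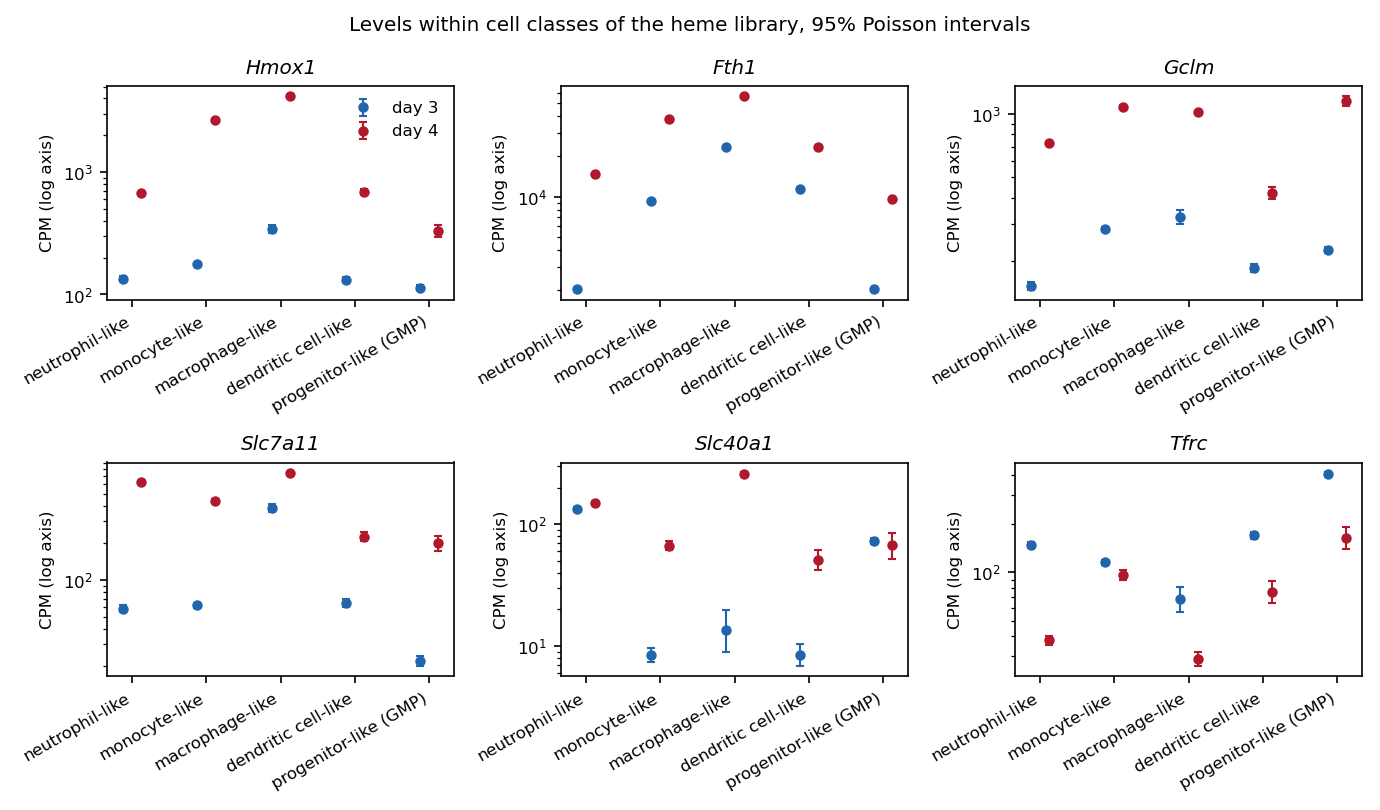
Levels (CPM, log axis) of 6 genes left out of the clustering, within 5 named classes on day 3 and day 4 of the heme library, with 95% Poisson intervals. Hmox1 was higher on day 4 in each class, and Slc40a1 was higher in monocyte-like and macrophage-like cells but near its day 3 level in neutrophil-like cells.

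Iron export differed by class. Slc40a1 in neutrophil-like cells was at 133 and 150.5 CPM (ratio 1.13, 1.07 to 1.19) and in progenitor-like cells at 72.9 and 67.3 CPM (ratio 0.922, 0.711 to 1.18). In monocyte-like cells it was at 8.47 and 66.8 CPM (ratio 7.89, 6.73 to 9.26), and in macrophage-like cells at 13.7 and 258 CPM (ratio 18.9, 12.97 to 28.7). The culture-wide ratio of 3.17 for Slc40a1 thus covers classes in which it differed little and classes in which it was several-fold higher. It also holds the different shares of these classes on the 2 days, and the part of each was not tested. Tfrc went the other way, with its lowest class ratio in neutrophil-like cells, at 147 and 37.8 CPM (ratio 0.257, 0.237 to 0.279). In macrophage-like, dendritic cell-like and progenitor-like cells the ratio of Tfrc was 0.427, 0.448 and 0.402. In monocyte-like cells Tfrc was at 115 and 96.2 CPM (ratio 0.837, 0.771 to 0.909). Fth1 had ratios of 7.25 in neutrophil-like, 4.11 in monocyte-like, 2.42 in macrophage-like, 2.06 in dendritic cell-like and 4.75 in progenitor-like cells. The lowest ratios of Fth1 were in the classes with its highest day 3 levels, 23449.9 CPM in macrophage-like and 11413.5 CPM in dendritic cell-like cells.

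Oxidant response genes were higher in each class. Of the members with 20 or more UMIs, 15 of 26 were 2-fold higher in neutrophil-like cells, 11 of 26 in monocyte-like, 11 of 27 in macrophage-like, 8 of 25 in dendritic cell-like and 9 of 23 in progenitor-like cells. Over all genes tested in these classes, 3.44%, 2.41%, 2.70%, 7.29% and 4.38% were 2-fold higher. Gclm had ratios of 4.80, 3.82, 3.17, 2.27 and 5.15 in the same order. Slc7a11 ranged from 1.91 in macrophage-like cells, where its day 3 level of 387 CPM was already high, to 10.8 in neutrophil-like cells (58.4 and 628 CPM). Prdx1 was unlike these genes in that macrophage-like cells held 73.5% of its day 4 UMIs, at 2167 and 7433 CPM. Cholesterol synthesis genes were 2-fold higher in 9 of 18 cases in monocyte-like cells and in 0 of 18 in neutrophil-like cells as a whole, where 16 were higher. Among single clusters, 5 of 18 were 2-fold higher in neutrophil-like cluster 6 (27.8%, against 9.86% of all genes there), 1 of 18 in neutrophil-like cluster 4 and 7 of 18 in monocyte-like cluster 16.

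Macrophage-like cells held 93.9% of the day 4 UMIs of Mt3, which was at 89.1 and 895 CPM there (ratio 10.04, 8.65 to 11.7) and at 10.004 and 13.1 CPM in neutrophil-like cells. Spic was spread over more classes. Macrophage-like cells held 63.9% of its day 4 UMIs, at 5.57 and 62.4 CPM (ratio 11.2, 6.23 to 22.6). Monocyte-like cells held a further 23.9% of Spic, at 2.38 and 39.7 CPM (ratio 16.6), and dendritic cell-like cells 6.38%, at 1.26 and 35.8 CPM (ratio 28.5, 15.7 to 55.8). In neutrophil-like cells Spic was at 1.16 and 2.52 CPM, near the day 0 level.

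In 3 clusters with 50 or more cells of each day, the day 4 cells could be set against day 3 cells of the same cluster. Neutrophil-like clusters 4 (204 and 293 cells) and 6 (79 and 100 cells) and monocyte-like cluster 16 (222 and 202 cells) gave ratios of Hmox1 of 2.81, 2.39 and 13.9. For Gclm they gave 3.90, 6.14 and 3.24, for Fth1 3.26, 4.77 and 3.17, and for Slc7a11 4.75, 5.98 and 4.49. Slc40a1 was at 0.848 and 0.746 of its day 3 level in clusters 4 and 6 and 8.70-fold higher in cluster 16. Tfrc was at 0.244, 0.554 and 0.795 of its day 3 level. Oxidant response genes were 2-fold higher in 10 of 21, 10 of 23 and 11 of 26 cases, against 3.27%, 9.86% and 2.06% of all genes in these clusters.

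Because the day 3 cells were deeper, shares of cells with a UMI were compared after thinning each cell to 3000 UMIs, which left out 27 day 3 and 160 day 4 cells. Hmox1 was then seen in 36.2% of the day 3 cells (34.6 to 37.9) and in 80.6% of the day 4 cells (79.1 to 82.0), and unthinned in 89.0% and 96.9%. On day 0 the thinned share was 33.5%, close to the day 3 share, and in the control library it was 10.3% on day 3 and 12.4% on day 4. Among monocyte-like cells the share was 45.1% on day 3 and 97.4% on day 4, and among neutrophil-like cells 33.0% and 76.0%. Gclm was seen in 45.6% and 84.3% of the cells, against 42.6% on day 0 and 43.0% and 35.1% in the control library. Slc7a11 was seen in 14.8% and 69.1%, against 4.57% on day 0 and 9.29% and 23.4% in the control library. Tfrc was seen in 35.6% and 9.16%, against 34.6% on day 0 and 24.7% and 18.6% in the control library. Spic was seen in 0.662% of the day 3 cells, near the day 0 share of 0.488%, and in 4.72% of the day 4 cells, against 0.242% and 0.0463% in the control library.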

How the data were processed

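The deposited values are raw UMI counts, which the authors obtained with Cell Ranger from 10x Genomics 3′ v3.1 libraries (version 4.0.0 and build GRCm38.p6 in the submitters' processing notes, version 5.0.0 in the matrix header). The authors assigned hashtags with Seurat, and these calls are deposited as text. Sources differ on how the culture days were scheduled, so the hashtag names were used. Doublets were treated through the hashtag calls only. Of 17378 heme barcodes, 1996 (11.5%) had several hashtags, which implies 151 doublets within the day 3 hashtag (4.35%) and 124 within day 4 (3.94%), and these remain. Both libraries shared 112 of all their barcodes, 32 of them among the 6350 kept cells (0.504%).

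UMIs were summed per culture and divided by the total (CPM). Ratios carry exact conditional Poisson intervals, ratios of ratios log-normal ones, and shares Clopper-Pearson ones, all at the 95% level. Genes needed a mean of 10 CPM and were called at 2-fold, and list members needed 20 UMIs. Cells were clustered in scanpy 1.11.5 (2000 variable genes, 15 components, 15 neighbours, Leiden resolution 1 with igraph 0.11.9), without ribosomal, mitochondrial and the 6 named lists. A cluster was named from 3 or more markers with a log2 ratio of 1 and detection in 10% of its cells. Named genes were the 10 highest and 10 lowest ratios and ratios of ratios, up to 5 members per list by size of the ratio, and members the study names. Scaling alternatives used edgeR 4.0.16 and DESeq2 1.42.0 for factors only. The steps were tested on simulated data. Coordinates come from GENCODE M21 and promoters from RefSeq. Python 3.11.15 and R 4.3.3 were used. The members and lists were chosen with earlier results of these data known.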

Additional observations from a re-analysis of the deposited data

Results flagged for a closer look

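In 4 named genes the change from day 3 to day 4 was 2-fold or more in opposite directions in the heme and control libraries, with 1 culture a day in each, and the differences were not tested. Pf4 (chr5:90772435-90773383), platelet factor 4, had a log2 ratio of 2.65 in the heme library (31.8 and 199 CPM), and in the control library it was at 69.9 and 16.7 CPM. Ppbp, another platelet chemokine, had a log2 ratio of 1.98 (9.57 and 37.8 CPM), against 9.12 and 0.884 CPM in the control library, below the limit of 10 CPM there. Pf4 had a UMI in 939 of 2999 cells on day 4 of the heme library, and Ppbp in 240. On that day 10 cells held 57.2% of the 9294 UMIs of Pf4 and 59.3% of the 1762 UMIs of Ppbp, and on day 3 of the control library 10 cells held 93.2% of 2491 and 100% of 325 UMIs. The highest single cell held 2683 UMIs of Pf4 and 194 of Ppbp on day 4 with heme. On day 3 of the control library it held 1333 of Pf4 and 309 of Ppbp. By class, 43 progenitor-like cells held 4676 of the day 4 UMIs of Pf4 and 456 macrophage-like cells 3407, and for Ppbp the macrophage-like cells held 1288 and the progenitor-like cells 295. Per cell, macrophage-like cells held 0.630 UMIs of Pf4 on day 3 and 7.47 on day 4. The class of the cell with 2683 UMIs was not determined, so that the mean of either class may rest largely on it. The summed megakaryocyte markers (8 genes), which include Pf4, were at 58.1 and 260 CPM in the heme library and at 93.2 and 24.5 CPM in the control library, and their part in these values was not tested. Slamf9, a SLAM family receptor, had a log2 ratio of -1.06 with heme (16.7 and 8.01 CPM), and it was at 13.6 and 28.3 CPM without. Tnfsf8, the CD30 ligand, had a log2 ratio of -1.09 with heme (14.4 and 6.80 CPM), and it was at 14.1 and 39.0 CPM without, and 10 cells held 55.5% of its day 4 UMIs with heme. With TMM or DESeq2 factors, Slamf9 and Tnfsf8 came under 2-fold.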

How the results depend on the processing

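No paired analysis was possible because each day of each library was 1 culture and the results come from no test. The 255 higher genes became 108 with a minimum of 50 CPM and 2540 with no minimum, and lay between 194 and 355 under the other settings. The 91 lower genes became 42 with TMM factors, 47 with DESeq2 size factors, 176 without ribosomal protein and mitochondrial genes in the total, 349 with the mean of each cell's CPM (against 246 higher), 34 at 50 CPM, 763 with no minimum, and 49 when the whole interval had to lie beyond 2-fold. They became 41, with 355 higher, when Fth1, Ftl1, S100a8 and S100a9 were left out of the total, a setting chosen after seeing the data. The day 4 minus day 3 difference in the neutrophil-like share was 39.3 percentage points, and 18.4 with the study's limits (32.2% of day 4 cells then unnamed), 32.5 at resolution 2, 34.6 with 30 components and 32.5 with the held-out lists kept in. For monocyte-like and macrophage-like cells together it was -11.4, and -18.1, -14.4 (resolution 0.5), -17.0 and -20.7 under the study's limits, that resolution, 30 components and the lists kept in. For progenitor-like cells it was -20.4, and -17.0 (study's limits), -17.9 (1000 or more genes), -17.2 (resolution 0.5), -17.5 (resolution 2), -23.8 (30 components) and -14.8 (lists kept in). Unnamed cells also varied, at 1.85% on day 3 and 15.2% on day 4 with 30 components. They were 7.52% and 12.2% with the lists kept in, and 12.7% and 16.7% at resolution 2. Unnamed cells count in no class, and their part in these differences was not tested. The median log2 ratio became -0.039 for iron genes and -0.18 for MHC class II genes with the mean of each cell's CPM. Of 82 named genes past 2-fold, 0 changed sign under 6 alternatives and 13 came under 2-fold in at least 1. The cause of these shifts was not tested. The median of all genes was -0.13 and moved to -0.02 with TMM factors and -0.23 without ribosomal protein and mitochondrial genes. At this depth, genes under a few CPM are limited by counting error, and levels near those of day 0 of the heme library may hold free RNA, which was not tested.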
